A study of Mus musculus with 12 samples.

Results

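The very wide R-loop peaks of HEPA1-6 cells were 946 of the 28335 peaks on chromosomes 1 to 19, out of 28717 peaks in the whole list, and both lists of the series together held 43625 peaks. The members were chosen by width alone: a peak was a member when the authors' interval measured 8000 bp or more. Width is therefore described here without a test. HEPA1-6 is a mouse hepatoma cell line, labelled wild type and untreated. The comparison tissue was wild-type, untreated liver of C57/Bl6 mice, whose age is not given in the sources used here. Each source had 2 libraries immunoprecipitated with S9.6, an antibody against RNA-DNA hybrids, 2 immunoprecipitated libraries labelled with RNase H1, an enzyme that degrades the RNA of a hybrid, and 2 input libraries, 12 libraries in all. The data were 1 peak list per source, whose peak names describe a merged immunoprecipitate set against input. Per-library values and the RNase H1 libraries were not analysed here. The lists therefore have no replicate spread, no p-value is given, and the depth behind them is unknown. Intervals in brackets are 95% Wilson intervals over peaks, genes or edges. These reflect counting error alone, and adjacent peaks can share a gene or fragment.

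Hepatocyte markers did not set the liver-labelled list apart. In it 8 of 38 hepatocyte genes held an interval (21.1%), against 29.0% of all protein-coding genes and 27 of 36 cell cycle genes (75%). In HEPA1-6, 9 of the 38 hepatocyte genes and 33 of the 36 cell cycle genes held a peak. Alb, the serum albumin gene, held 2 liver intervals and Hnf4a, a transcription factor of hepatocytes, 5, whereas Ttr, Apoa1, Serpina1a, Cps1 and Cyp2e1 held none in either list. The list is called liver here by its label.

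An R-loop forms when a nascent RNA pairs with its DNA template behind RNA polymerase and leaves the other DNA strand unpaired. R-loops are known at promoters rich in G and C, along the bodies of strongly transcribed genes and near transcription end sites. In DNA-RNA immunoprecipitation the genome is often cut with a mix of restriction enzymes before S9.6 is added, and a whole fragment is then recovered wherever the hybrid lies within it. The labels cite a published S9.6 protocol for the extraction and name no digest.

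The edges of the members were read at base resolution. RefSeq sequence of 300 bases around gene starts (build GRCm38.p6) covered 43 of the 1892 member edges with 12 bases on either side. Of these 43 edges, 33 (76.7%, 62.3 to 86.8%) lay exactly at the cut position of 1 of 5 enzymes with a site of 6 bases: HindIII (AAGCTT) at 16, EcoRI (GAATTC) at 7, XbaI (TCTAGA) at 6, BsrGI (TGTACA) at 2 and SspI (AATATT) at 2. Over all positions of these sequences on chromosomes 1 to 19, 0.114% are such a cut position. The sites are palindromes and read alike on both strands, and each edge counted for 1 enzyme. Of 3 other enzymes with sites of 6 bases (BamHI, BglII and PstI), none had its cut position at any of the 43 edges. The enzymes were chosen after the data had been seen. The 24 bases at the edge of 1 member for each enzyme follow, and then the highest-scoring edge without such a site. They are plus-strand sequence with the site in capitals, and the edge lies directly after base 12 of the 24.
Nubp2 member, left edge, XbaI, chr17:24885892-24885915: cgggtaggtctTCTAGAagcccca
Eif5a member, right edge, HindIII, chr11:69922068-69922091: cgcatagAAGCTTttcctttctaa
Btf3 member, right edge, EcoRI, chr13:98317008-98317031: tcctccaGAATTCaggaagcggag
Ndufa10 member, right edge, SspI, chr1:92473852-92473875: aaaaaagaaAATATTccggaactg
Kcnq1 member, right edge, BsrGI, chr7:143296736-143296759: gtgagctTGTACAggattgtacga
Maff member, left edge, no site, chr15:79346544-79346567: aaccccactgctaaacgcagcatt

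At a left edge the interval began just after the upper-strand cut, and at a right edge it ended at the lower-strand cut. Narrower HEPA1-6 peaks had 403 of 776 readable edges at a cut position (51.9%, 48.4 to 55.4%), and the share was 37.9% (33.0 to 43.1%) for peaks under 1000 bp. The intervals of the members and of the peaks under 1000 bp did not overlap, whereas those of the members and of peaks from 2000 to under 4000 bp (68.1%, 59.9 to 75.4%) did. The same cut positions appeared in the liver list, at 325 of 768 readable edges (42.3%). Of the 33 member edges at a cut position, 18 were also the exact edge of a liver interval (54.5%, 38.0 to 70.2%), and of the other 10 edges none was (0%, 0 to 27.8%). Over all 1892 member edges, 475 (25.1%, 23.2 to 27.1%) matched a liver edge to the base, a share whose interval overlapped that of peaks from 4000 to under 8000 bp (22.8%, 21.7 to 24.0%). It was 10.48% (10.2 to 10.7%) over the edges of all HEPA1-6 peaks on these chromosomes. Members also held sites in their interior: of 720 gene-start sequences wholly inside a member, 92 (12.8%, 10.54 to 15.4%) held at least 1 of the 5 sites, against 241 of 3266 (7.38%, 6.53 to 8.33%) inside narrower peaks. Sequences that touched no HEPA1-6 peak held one in 28.6% of cases and were poorer in G and C, with a median of 51.3% against 62.2% inside members. Inside narrower peaks the median was 64.3%. A sequence that spans a peak edge at a site is not counted as inside. The influence of this and of base composition on these shares was not tested.

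**Figure D1:**
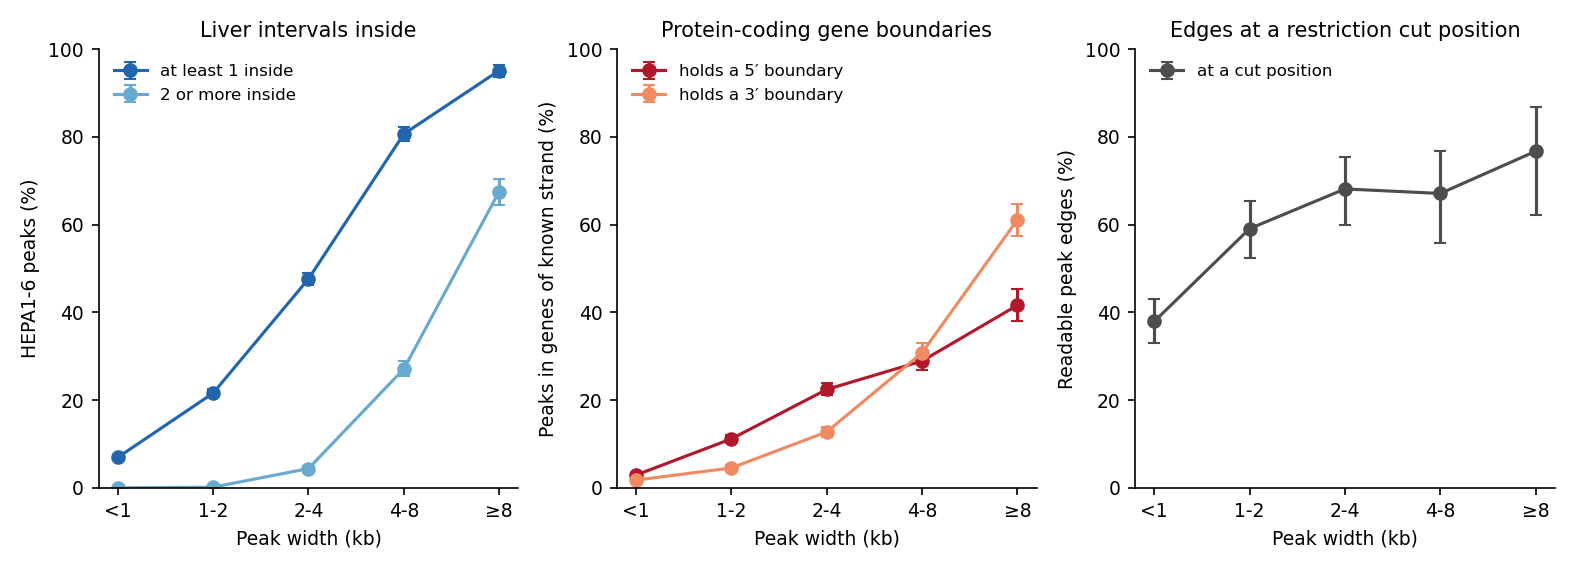
Shares of HEPA1-6 peaks against their width in kb, with 95% Wilson intervals. Left, peaks with liver intervals wholly inside; middle, peaks that hold a 5′ or a 3′ boundary of a protein-coding gene, among peaks in genes of known strand; right, readable edges at a restriction cut position. At 8 kb or more, 95.1% of 946 peaks held a liver interval. Of the 687 in genes of known strand, 61.1% held a 3′ boundary and 41.6% a 5′ boundary. Of the 43 readable edges, 76.7% lay at a cut position.

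Members made up 3.34% of the peaks on chromosomes 1 to 19 and 20.1% of their bases, 11.2 Mb of 55.8 Mb. Their median width was 10684.5 bp, with quartiles at 9082 and 13003 bp, and 562 members reached 10000 bp, 145 reached 15000 bp and 39 reached 20000 bp. The 3 members just inside the threshold, at Atic, Otulin and Agps, were 8000, 8002 and 8003 bp wide and scored 32, 23 and 30. The 3 peaks just outside, at Lgals3bp, Ncoa6 and the end of Cfl1, were 7971, 7992 and 7998 bp wide and scored 22, 41 and 182. No break in score marks the threshold.

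The authors' score is a whole number per peak whose scale is not stated, so it ranks peaks within a list only. Member scores ran from 16 to 798, with a median of 51 and quartiles at 36 and 73. A score above 21, the median of the whole list, was held by 931 members (98.4%), against 46.7% of all peaks on these chromosomes. The score comes from the same peaks as the width, so nothing is read from this count. Median scores by width were 17 under 1000 bp, 20 from 1000 bp, 26 from 2000 bp and 34 from 4000 to under 8000 bp. The top member ranked 36 in the whole list by score. Width and score were only loosely related among members (Spearman's rho 0.20 over 946 peaks of 1 list, a description).

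The high-scoring members included genes that most cell types express strongly. Ywhaz, which encodes a 14-3-3 adaptor protein, had a member of 9809 bp with a score of 564 over part of the gene. At Actb, the cytoskeletal beta-actin gene, a member of 10043 bp scored 513. Ran, a small GTPase of nuclear transport, was inside a member of 8141 bp that scored 450. Further members scored 438 at Rpl38, 373 at Atf4 and Rps19bp1, 308 at Rps21 and Cables2, and 297 at Eif4a1, Cd68 and Mpdu1. Each of these 7 members held 1 or 2 liver intervals, which covered between 71.9% and 99.2% of its bases. None of the 7 was wider than 11510 bp.

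**Figure D2:**
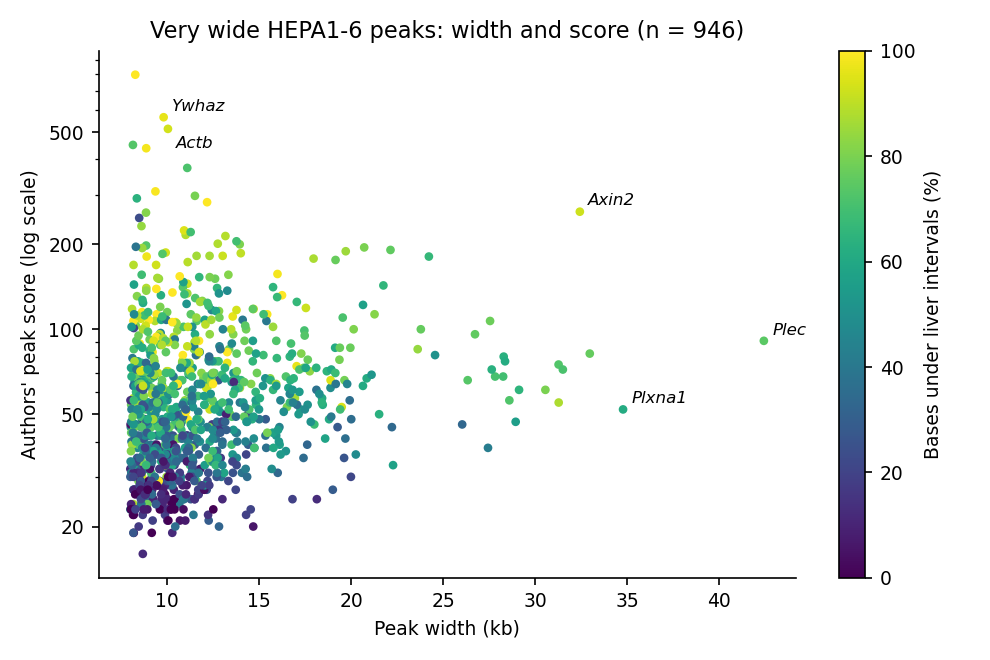
Width in kb and authors' score on a log scale for the 946 members, coloured by the percentage of their bases under liver intervals. Members with scores of 35 or less are mostly dark, with a median of 21.8% of bases covered, and members with scores of 73 or more are mostly light, with a median of 76.9%.

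The widest members lay at other genes. A member of 42429 bp (chr15:76168529-76210957, score 91) lay at Plec, which encodes the cytoskeletal linker plectin, and held 7 liver intervals that covered 74.6% of it. At Plxna1, a semaphorin receptor gene, the member of 34777 bp scored 52 and held 9 liver intervals. A member of 32968 bp reached from Adrm1, a proteasome receptor gene, into Lama5, a laminin gene, and scored 82. At Axin2, a target and inhibitor of Wnt signalling, the member of 32428 bp scored 261 and a lone liver interval covered 92.2% of it. Other members of this width class were at Smad7 (31279 bp), Rai1 and Srebf1 (31273 bp), Ywhag (30556 bp), H13 and Mcts2 (29125 bp), Pdk2 and Itga3 (28941 bp), and Chd4, Nop2 and Iffo1 (28598 bp). Srebf1 encodes a transcription factor of lipid synthesis in the liver. Of these 10 members, only the one at Axin2 scored above 100.

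The sequence upstream of the gene start differed in base composition among high-scoring members. The 250 bases before 3 gene starts inside members are shown for this range of composition, with runs of 4 or more G or C in capitals: Ran has 81.6% G and C, Axin2 69.2% and Rpl38 47.6%. All 3 are written along the gene's own strand, from chr5:129019906-129020155, chr11:108920099-108920348 and chr11:114668330-114668579.
Ran: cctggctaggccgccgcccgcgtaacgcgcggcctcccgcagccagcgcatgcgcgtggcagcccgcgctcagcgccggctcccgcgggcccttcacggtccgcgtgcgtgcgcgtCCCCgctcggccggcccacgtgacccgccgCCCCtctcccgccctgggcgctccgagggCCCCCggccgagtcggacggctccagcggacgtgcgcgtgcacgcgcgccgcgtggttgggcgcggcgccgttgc
Axin2: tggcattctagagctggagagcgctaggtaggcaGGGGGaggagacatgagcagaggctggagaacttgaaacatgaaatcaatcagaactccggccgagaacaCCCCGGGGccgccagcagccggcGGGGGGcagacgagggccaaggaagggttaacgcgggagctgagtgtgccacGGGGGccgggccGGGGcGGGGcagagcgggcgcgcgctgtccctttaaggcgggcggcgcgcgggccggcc
Rpl38: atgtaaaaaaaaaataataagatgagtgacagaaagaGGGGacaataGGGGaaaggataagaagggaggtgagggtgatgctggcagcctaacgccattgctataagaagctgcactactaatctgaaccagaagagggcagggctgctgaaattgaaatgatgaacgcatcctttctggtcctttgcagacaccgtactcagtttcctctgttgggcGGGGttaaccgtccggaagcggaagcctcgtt

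Axin2 had 6 runs of G and 1 of C, Rpl38 had 3 runs of G and none of C, and Ran had 3 runs of C and none of G. Over 634 start sequences of protein-coding genes inside members, the median G and C content was 62.3% (order-statistic interval 61.3 to 63.7%), close to the 63.7% (63.3 to 64.0%) of 3310 starts inside narrower peaks, and above the 52.3% (52.0 to 52.7%) of genes without any HEPA1-6 peak. GC skew, the excess of G over C on the gene's strand divided by their sum, had a median of 0.026 (0.011 to 0.036) inside members and 0.011 (0.0050 to 0.017) inside narrower peaks, with overlapping intervals. A run of GGGG on either strand was found in 97.2% of the member sequences and in 88.9% of all, TATAAA in 5.84% and 12.7%, CCAAT in 32.5% and 38.1%, and CCGGAAG in 21.9% and 11.9%. For these motifs too, starts inside narrower peaks were near the members, at 96.5%, 6.31%, 35.2% and 20.997%.

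Members reached 1675 annotated genes, of which 1363 were protein-coding (6.6% of 20661 on these chromosomes, 6.27 to 6.94%). Members covered 50% or more of 617 protein-coding genes (2.99%) and the whole of 298. The median was 2 genes of any type per member. At least 1 gene was touched by 942 members, exactly 1 by 392, exactly 2 by 360, and 3 or more by the rest, up to 10. Counting protein-coding genes alone, 502 members touched 1 gene and 418 (44.2%, 41.1 to 47.4%) touched 2 or more. Peaks from 4000 to under 8000 bp touched 2 or more in 18.5% (17.1 to 20.1%), and a wider interval has more room for a second gene. Per 10 kb the counts were 1.30 protein-coding genes in members and 2.12 in peaks from 4000 to under 8000 bp. A gene counts at 1 bp of overlap, so this rate falls with width by construction, from 15.7 in peaks under 1000 bp. It does not show that members are sparser in genes. At least 1 whole protein-coding gene lay inside 241 members (25.5%, 22.8 to 28.3%).

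Members with many genes included snoRNA hosts and compact gene clusters. Small nucleolar RNAs guide the chemical modification of ribosomal RNA, and many are made from introns of genes of the translation machinery. Members with 7 genes lay at Eif4a1, a translation initiation helicase (score 297), at Rpl23a with Snord4a, Snord42a and Snord42b (score 169), and at Nop56, a core protein of snoRNA particles, with Snord57 and Snord110 (score 181). With 6 genes each, the member at Acp4 held Snord88a and Snord88c, and those around Fancc, Nme3 and Stub1 held a microRNA cluster, 6 protein-coding genes, and 5 protein-coding genes with Mir3082. By gene type, 46 of 1286 annotated snoRNA genes (3.58%, 2.69 to 4.74%) and 74 of 1136 microRNA genes (6.51%, 5.22 to 8.10%) were touched. Protein-coding genes were touched in 6.6% of cases, so neither share of touched genes stood above theirs. These classes differ in length, with medians of 130 bp for snoRNA, 80 bp for microRNA and 17491 bp for protein-coding genes. Members covered the whole of 3.58% of snoRNA genes and 6.43% of microRNA genes, against 1.44% of protein-coding genes. A longer gene is touched more easily, and a shorter one is covered whole more easily.

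Of the 919 microRNA hairpins in the RefSeq sequence table on these chromosomes, 67 (7.29%) lay wholly inside 51 members, and 3 members held 3 or more. Of 74 annotated microRNA genes touched, 73 lay wholly inside members, and those without a hairpin in the sequence table are not among the 67. Mature sequences from those 3 members, chosen after their values were seen, are shown where they share a seed (bases 2 to 8, in capitals) with another one shown. The member at Zswim4 on chromosome 8 (19386 bp, score 86) and the member at Fancc on chromosome 13 (12102 bp, score 38) hold the paralogous clusters of Mir23a and Mir23b. The member at Mcm7 on chromosome 5 (11094 bp, score 134) holds Mir25, Mir93 and Mir106b, which lie in introns of this replication helicase gene.
mmu-miR-27a-3p, chromosome 8: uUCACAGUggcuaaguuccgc
mmu-miR-27b-3p, chromosome 13: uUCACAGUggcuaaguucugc
mmu-miR-24-2-5p, chromosome 8: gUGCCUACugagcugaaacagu
mmu-miR-24-1-5p, chromosome 13: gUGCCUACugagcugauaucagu
mmu-miR-93-5p, chromosome 5: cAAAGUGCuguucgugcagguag
mmu-miR-106b-5p, chromosome 5: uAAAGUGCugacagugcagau
The Zswim4 and Fancc members thus share the seeds UCACAGU, of miR-27a-3p and miR-27b-3p, and UGCCUAC, of both miR-24 5p arms. The sequences used here held no 3p arm of Mir23b, so miR-23a-3p (seed UCACAUU) could not be compared with it. Both members also hold miR-24-3p (seed GGCUCAG) and miR-3074-5p (seed UUCCUGC), which carry the same name in each and are not shown. The seed AAAGUGC is shared within the Mcm7 member, by miR-93-5p and miR-106b-5p. The liver list covered 77.0% of the Zswim4 member, 36.4% of the Fancc member and 85.8% of the Mcm7 member.

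Position along genes changed with width. The strand of every protein-coding gene touched was known for 687 members. Of these, 420 (61.1%, 57.4 to 64.7%) held a 3′ boundary of such a gene and 286 (41.6%, 38.0 to 45.4%) a 5′ boundary, with 190 holding both, 230 a 3′ boundary alone and 96 a 5′ boundary alone. Peaks from 2000 to under 4000 bp had the opposite order, with 12.7% (11.7 to 13.9%) at a 3′ and 22.4% (21.1 to 23.8%) at a 5′ boundary. From 4000 to under 8000 bp the shares were 30.8% and 28.9%, with overlapping intervals. A further description needs no gene strand: 214 members (22.6%) lay inside protein-coding genes without reaching a boundary. The share was 46.1% (44.2 to 48.1%) from 4000 to under 8000 bp and 72.8% over all narrower peaks. A longer interval reaches a boundary more easily.

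Touched genes were of intermediate length. Of protein-coding genes from 5000 to under 10000 bp, 9.20% were touched (8.18 to 10.3%), and from 10000 to under 20000 bp 9.27% (8.38 to 10.2%). The shares were 4.66% (4.09 to 5.31%) under 5000 bp and 2.44% (1.63 to 3.63%) in the longest class, with a median length of 326414 bp. Peaks of any width were also less frequent at short genes. They lay at 22.4% of genes under 5000 bp, 42.4% from 5000 bp, 48.6% from 10000 bp and 34.5% in the longest class. Genes touched had a median length of 15194 bp, against 17491 bp for all, and the median share of a touched gene that was covered was 43.8%. Several members lay in 1 gene at 79 genes and 3 or more at 9 genes. Myo10, an unconventional myosin gene, held 5 with scores from 20 to 66, and Nkd1, a Wnt pathway inhibitor, held 4 over 52.2% of its length.

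A strand was given by the authors to 941 members, 465 plus and 476 minus. Where all protein-coding genes of a member lay on 1 strand, the member had that strand in 386 of 442 cases (87.3%, 83.9 to 90.1%). How the authors assigned strand is not given in the sources used here. Had it come from gene annotation, this agreement would follow from the assignment, which was not tested. Genes on both strands were found in 245 of 687 members (35.7%, 32.2 to 39.3%), against 12.8% (11.4 to 14.4%) of peaks from 4000 to under 8000 bp. A single strand per interval cannot match every gene touched by those members, and a gene counts at 1 bp of overlap. On which strand their hybrids lie was not tested. The 5 members without a strand touched predicted genes only. Of these, 2 were neighbours on chromosome 6 (12491 and 10853 bp, scores 64 and 81), and 1 on chromosome 2 scored 201. Another 4 members touched no gene, with scores from 37 to 72 and the widest of them 27640 bp long.

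Liver intervals inside the members gave a readout that the width rule did not use. At least 1 liver interval lay wholly inside 900 members (95.1%, 93.6 to 96.3%), against 27.1% of HEPA1-6 peaks of every width and 80.7% (79.1 to 82.2%) of peaks from 4000 to under 8000 bp. Exactly 1 lay inside 261 members, 2 inside 330, 3 inside 207, and 4 or more inside 102, up to 9. A wider peak has more room, and per 10 kb the members held 1.78 liver intervals against 2.02 for peaks from 4000 to under 8000 bp. An overlap of at least 1 bp was found for 926 members (97.9%, 96.8 to 98.6%), against 31.7% of peaks of every width.

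Liver intervals covered a median of 53.6% of a member (quartiles 33.4 and 73.7%), compared with 36.7% for peaks from 4000 to under 8000 bp. The largest liver interval over a member covered 90% or more of it in 60 members (6.34%, 4.96 to 8.08%). This share was near the 6.86% of peaks of every width. The liver intervals inside members numbered 2004, had a median width of 1832.5 bp and a median score of 26. Liver intervals that touched only narrower HEPA1-6 peaks had medians of 941 bp and 22, and those that touched no HEPA1-6 peak 587 bp and 18. Of 158 liver intervals that were themselves 8000 bp or wider, 144 touched a member, against 14.6% of all liver intervals on chromosomes 1 to 19. A wider liver interval touches a member more easily.

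**Figure D3:**
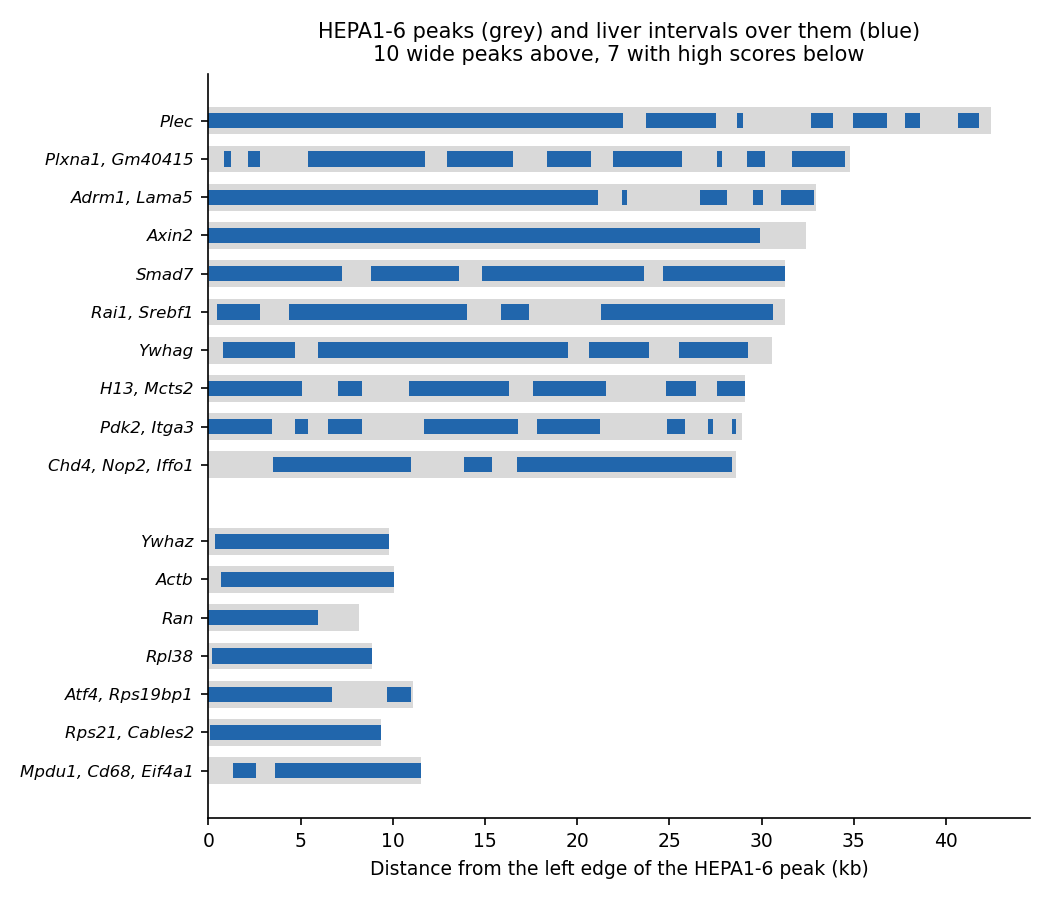
A set of 10 of the widest members (above) and 7 with high scores (below) as grey bars from their left edge in kb, with liver intervals over them in blue. The wide members at Plxna1 and Itga3 are overlaid by 9 and 8 separate liver intervals, and those at Ywhaz and Actb by 1.

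Coverage by liver intervals was higher in members with a higher HEPA1-6 score. Among members scoring 35 or less, the median coverage was 21.8% (quartiles 10.9 and 38.4%, n = 234). It was 46.2% for scores from 36 to 50, 63.7% (49.7 to 75.6%) from 51 to 72, and 76.9% (64.3 to 88.0%) for scores of 73 or more (n = 238). The quartiles of both upper groups lay above those of the lowest. Median widths of the groups rose from 10002.5 to 11479 bp alongside. Over the 946 members the rank correlation of score with coverage was 0.71, given as a description because members share 2 lists. The 20 members without a liver base scored 30 or less. The highest-scoring were at Slc2a1, the glucose transporter gene (10054 bp, score 30), Nmt1 (29), Gtpbp1 (28), and Kank2 and Ncbp1 with Xpa (27 each). Members at the low end of the score scored 19 at Zc3h11a, Sh3pxd2b, Akt1 and Necab3. At the other end, liver intervals covered every base of 21 members, among them those at the chaperone gene Hsp90ab1 (score 282), at Ntmt1 and Asb6, at Scaf11, and at the amino acid transporter gene Slc38a2. At Scaf11 and Slc38a2 the liver interval reached beyond the member.

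The strands of both lists were compared for liver intervals inside members. Of 1976 such intervals with a strand, 1500 (75.9%, 74.0 to 77.7%) had the strand of the member. The share was 789 of 901 (87.6%, 85.3 to 89.6%) in members whose protein-coding genes all lay on 1 strand, and 274 of 522 (52.5%, 48.2 to 56.7%) in members with genes on both strands, with intervals that did not overlap. The strand of a gene came from the start-sequence table, and members with a gene of unknown strand entered neither group. How the authors assigned strand in either list is not given in the sources used here. Had it come from gene annotation, the difference between these groups would follow from gene layout, which was not tested.

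Gene lists were set against the 6.6% of protein-coding genes that a member touched. Glycolysis enzymes were touched at 8 of 14 genes (57.1%, 32.6 to 78.6%). The widest of these members were at Tpi1, triose phosphate isomerase (26731 bp, score 96), Gapdh, the dehydrogenase of the pathway (22138 bp, score 191), and Pfkl, the liver phosphofructokinase (16511 bp, score 53). The others were Pkm, Pgam1, Gpi1, Eno1 and the glucose transporter gene Slc2a1. At Eno1 liver intervals covered 5.34% of the member and at Slc2a1 none, against 75.6% at Gapdh.

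Splicing factors were touched at 14 of 30 genes (46.7%, 30.2 to 63.9%), the widest at Srrm2, a scaffold of nuclear speckles (28290 bp, score 80), Ptbp1, which represses exons (17540 bp, score 119), and Snrnp70 of the U1 particle (16839 bp, score 55). Srsf6, a serine-arginine splicing factor, had a narrower member with a higher score (8605 bp, 232). Actins, tubulins and their partners were touched at 8 of 19 genes (42.1%, 23.1 to 63.7%), the widest at Myh9, nonmuscle myosin (16670 bp, score 55), Pfn1, an actin-binding profilin (12819 bp, score 116), and Tpm4, a tropomyosin (12815 bp, score 134). Actb and Actg1, the cytoplasmic actins, had members with scores of 513 and 198.

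Nucleolar and ribosome assembly genes were touched at 7 of 19 (36.8%, 19.1 to 59.0%), the widest at Nop2, an RNA methyltransferase (28598 bp, score 56), Ubtf, a factor of RNA polymerase I (15997 bp, score 157), and Fbl, fibrillarin (13140 bp, score 73). Translation factors were touched at 7 of 20 (35.0%, 18.1 to 56.7%), the widest at Eef1g (24560 bp, score 81), Eif6 (19706 bp, score 189) and Eif4b (12714 bp, score 47). Ribosomal proteins of the cytosol were touched at 9 of 30 (30.0%, 16.7 to 47.9%), and in each of these 9 the whole gene was covered. Among them were Rpl18 (17531 bp, score 73), Rps18 (10883 bp, score 147) and Rps3 (10722 bp, score 73). Chaperones were touched at 6 of 22 (27.3%, 13.2 to 48.2%), among them Calr (16027 bp, score 44), Cct5 (15437 bp, score 113) and Cct2 (13367 bp, score 85). All 30 ribosomal protein genes and all 30 splicing factor genes held a HEPA1-6 peak of some width, against 42.0% of protein-coding genes, and the liver list held an interval at all of them too.

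**Figure D4:**
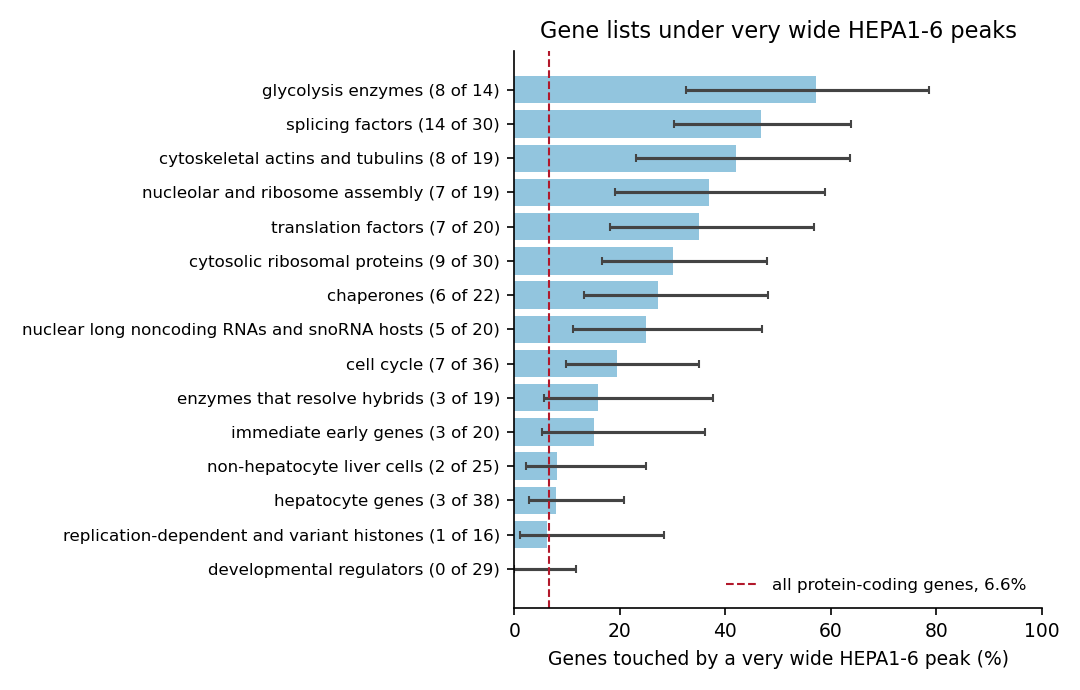
Share of each gene list touched by a member, in percent, with 95% Wilson intervals; the dashed line marks the 6.6% of all protein-coding genes. Glycolysis enzymes (57.1%) and splicing factors (46.7%) are at the top, and developmental regulators, at 0 of 29, at the bottom.

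Nuclear long noncoding RNAs and snoRNA hosts were touched at 5 of 20 genes (25%, 11.2 to 46.9%), against 1.32% of all 12408 annotated lncRNA genes. These were Kcnq1ot1, an imprinted antisense RNA (19404 bp, score 52), Pvt1 (13504 bp, score 39), Neat1, the scaffold of paraspeckles (13167 bp, score 214), Snhg7 (9954 bp, score 108) and Malat1, an abundant nuclear RNA (9921 bp, score 187). Cell cycle genes were touched at 7 of 36 (19.4%, 9.75 to 35.03%), the widest at Mki67 (18589 bp, score 41), Cdt1, which licenses replication origins (12651 bp, score 116), and Mcm7 (11094 bp, score 134). Immediate early genes were touched at 3 of 20 (15%, 5.24 to 36.0%): Ier2 (15756 bp), Fosl1 (14660 bp) and Junb (12284 bp). Of enzymes that resolve hybrids, 3 of 19 were touched (15.8%, 5.52 to 37.6%), namely the helicase genes Ddx39b and Ddx5 and Rnaseh2c, a subunit of RNase H2. The intervals of the immediate early genes and of these enzymes include the 6.6% of all protein-coding genes. A HEPA1-6 peak of some width lay at 19 of the 20 and at 17 of the 19, against 42.0% of protein-coding genes. Of 16 histone genes 1 was touched, H3f3a (6.25%, 1.11 to 28.3%), a share near the 6.6% of all protein-coding genes.

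Hepatocyte genes were touched at 3 of 38 (7.89%, 2.72 to 20.8%), with Apoe, the apolipoprotein gene, in a member of 20641 bp (score 63), Rbp4, the retinol carrier gene, in one of 11129 bp (score 102) and Trf, transferrin, in one of 8801 bp (score 38). Markers of other liver cells were touched at 2 of 25 (8%, 2.22 to 24.97%). One was the macrophage gene Cd68, which lies beside Eif4a1 in the same member. The other was the B cell gene Cd79a (9185 bp, score 34), whose member touched 2 genes and covered 25.8% of Cd79a. No developmental regulator of 29 was touched (0%, 0 to 11.7%).

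**Figure D5:**
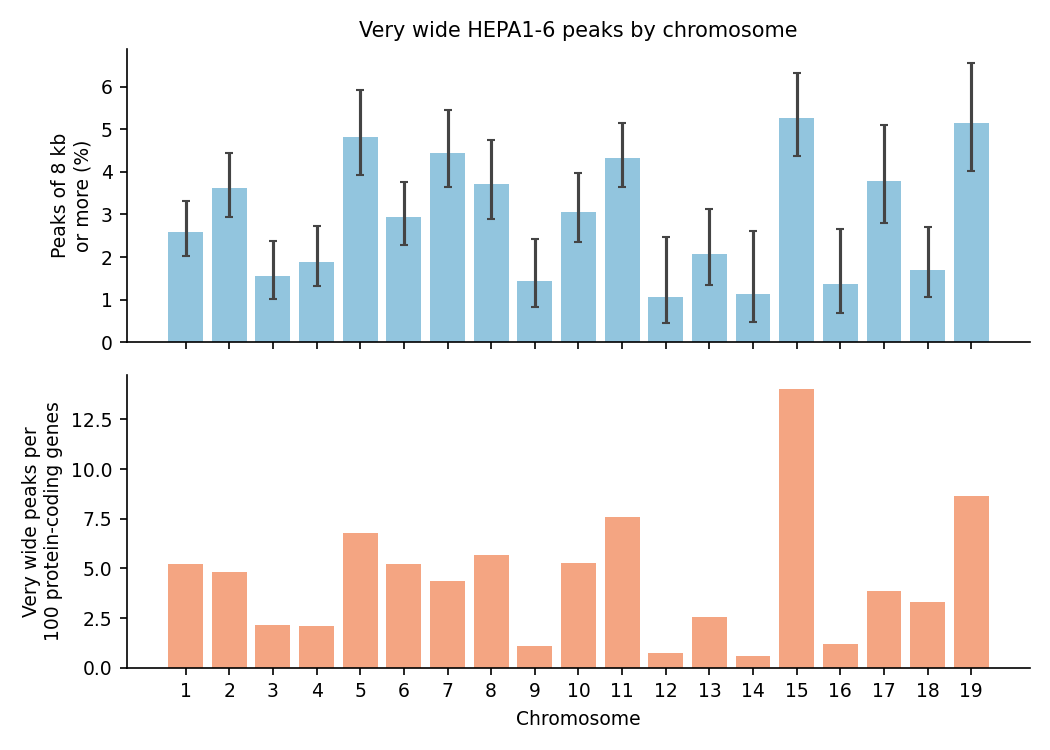
Above, share of the HEPA1-6 peaks of each chromosome that were 8 kb or wider, in percent, with 95% Wilson intervals; below, very wide peaks per 100 protein-coding genes. Chromosomes 15 and 19 are highest in both panels, and chromosomes 12 and 14 lowest.

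Members were spread unevenly over the genome. Chromosome 11 held 122, chromosome 15 held 109 and chromosome 7 held 89, whereas chromosomes 12 and 14 held 5 each. As a share of the peaks of each chromosome, members made up 5.26% (4.38 to 6.31%) on chromosome 15, 5.14% (4.02 to 6.55%) on chromosome 19 and 4.82% (3.92 to 5.92%) on chromosome 5. On chromosomes 12, 14 and 16 the shares were 1.07% (0.456 to 2.47%), 1.13% (0.483 to 2.61%) and 1.37% (0.693 to 2.67%). Chromosome 9, with 1201 protein-coding genes, held 13 members, and chromosome 8, with 1042, held 59. Per 100 protein-coding genes the range was from 0.588 on chromosome 14 to 14.05 on chromosome 15. Peaks of any width ranged from 52.1 per 100 genes on chromosome 14 to 267.01 on chromosome 15. In the liver list, intervals of 8000 bp or more numbered 31 on chromosome 15 (1.39% of its intervals) and 25 on chromosome 5 (2.46%), against 1.11% over chromosomes 1 to 19, and none lay on chromosomes 3, 12 or 13.

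Another HEPA1-6 peak lay within 5 kb of 778 members (82.2%) and of 69.5% of narrower peaks. The median distance to the nearest peak was 1639 bp, against 2451 bp for narrower peaks. The smallest gap was 899 bp. In 59 cases the neighbour under 5 kb away was itself a member, as in Myo10.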

How the data were processed

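Per the labels, S9.6 immunoprecipitates, immunoprecipitates with RNase H1 and inputs were sequenced from HEPA1-6 cells and mouse liver, with 10 PCR cycles for immunoprecipitates and 4 for inputs. Per the submitters' processing notes, CASAVA 1.8.2, cutadapt, Bowtie2, SAMtools, bedtools and MACS2 were used with build mm10. Their roles, settings and peak thresholds are not given in the sources used here. The authors deposited 1 list per source with start, end, strand and a score per peak, a whole number from 10 upwards on an unstated scale. Depth is unknown.

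Members, gene lists and comparisons were chosen with earlier results of these data known. The members named are, by rule, the widest, the highest and lowest in score, those with most genes, most liver intervals, most and no liver coverage, those next to the width threshold, and, per gene list, the 3 widest. Gene boundaries came from RefSeq (GRCm38.p6, 20661 protein-coding genes on chromosomes 1 to 19). Gene strands and 300-base start sequences came from a RefSeq table that gave a strand for 1106 of the 1363 protein-coding genes touched. A gene was touched at 1 bp of overlap, and a liver interval counted when wholly inside. Intervals are Wilson, or order-statistic intervals for medians (Python 3.11.15, scipy 1.17.1). The interval counts were tested on simulated data. Coordinates are 1-based. Results for some members that the naming rule selects are not reported here.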

Additional observations from a re-analysis of the deposited data

Results flagged for a closer look

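The width rule kept chromosomes 1 to 19, and 7 HEPA1-6 peaks of 8000 bp or more lay elsewhere: 3 on X, 3 on Y and 1 on the mitochondrial genome. They were singled out as signal outside the comparisons above. The mitochondrial peak spanned 16122 bp with a score of 10189, far above the top member score of 798. The X and Y peaks scored from 35 to 148, and 2 of those on Y had no strand.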

How the results depend on the processing

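Of 42 alternatives for 10 results, 13 gave a value inside the reported interval, or a count within 1.5 times the reported one, and 29 moved. Most follow from the width threshold. With 5000, 10000 and 15000 bp there were 2471, 562 and 145 peaks, with median scores of 41, 54 and 64 and a median liver coverage of 45.4%, 57.1% and 63.3%. These peaks touched 13.3%, 4.26% and 1.27% of protein-coding genes, and 15.5%, 31.9% and 38.6% of them covered a whole one. The share with a liver interval inside was 88.8% at 5000 bp and 99.3% at 15000 bp, and the median number of genes was 1 at 5000 bp. Counting any overlap, or the midpoint of the liver interval, gave 97.9% of members with a liver interval in either case, and the higher-scoring 50% of liver intervals gave 81.1%, with a median coverage of 43.3%. The median number of genes was 1 for protein-coding genes alone, 1 without predicted genes and pseudogenes, and 0 for genes wholly inside. Asking for 50% of a gene body lowered the share of protein-coding genes to 2.99% and that of the listed genes from 23.0% to 17.1%, and peaks of every width touched 74.2% of the listed genes. At 90% of a gene body, 30.1% of members covered a gene. Leaving out chromosome 15 gave 837 members, of which 95.9% held a liver interval. No paired analysis was possible because each source is represented by 1 merged peak list, whatever replicate numbers its libraries carry. Leaving out each replicate was not run for the same reason. Unknown depth limits every statement on peaks missing from the liver list.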
